A study of Schizosaccharomyces pombe with 2 samples.

Results

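The genes described here encode the proteins of the small (40S) ribosomal subunit of the fission yeast Schizosaccharomyces pombe. They were chosen by name, as the array probes whose name, or current gene symbol, begins with rps and a digit. There were 55 such genes among 5006 gene probe names, and all 55 were among the 4903 genes bright enough to be tested. Each was printed as a pair of spots on each of 2 arrays, giving 220 spot measurements, 2 of them without signal.

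The series asked which transcripts change when the transcriptional corepressor Ssn6 is in excess. A wild-type strain carrying the plasmid pDUAL-Ssn6, which expresses Ssn6, was set against a wild-type strain carrying empty pDUAL. Both cultures grew logarithmically in MM-URA, a minimal medium lacking uracil that keeps selection on the plasmid, at 30 degrees, so that the controls share the vector, the medium and the selection. Each array was hybridised with both cultures in 2 colours, from independent RNA preparations. Per the labels the dyes were swapped, Cy3 marking the Ssn6 RNA on array 1 and Cy5 on array 2. The promoter on the plasmid is not given in the sources used here. In bulk cultures, more transcript per cell and more cells holding it cannot be told apart.

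The small subunit binds mRNA and decodes it. Its proteins sit on one ribosomal RNA, in a head that moves as translation proceeds and in a body with a platform where the mRNA leaves. Each protein is needed in equal number, and the genes of a growing yeast are known to be transcribed heavily and together, under control of nutrients and of the TOR kinases. Many fission yeast ribosomal proteins are encoded by paralogs, that is, by gene copies at separate loci.

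A ratio is that of channel B to channel A on the log2 scale, after loess normalization within each array, as the mean of the arrays ± SD (n = 2). A loess fit subtracts from each spot the typical ratio of spots of like brightness. The files name their channels without a dye or a culture. The ssn6 gene itself had ratios of 1.91 on array 1 and 2.18 on array 2, with a mean of 2.05 ± 0.19 (limma, adjusted p = 6.69e-05). Channel B is therefore likely the Ssn6 culture on both arrays. The labelled dye swap and the shared sign of ssn6 hold together only if the channels follow the culture and not the dye, which is not stated. No array's sign was turned. Since the dye of each channel is not given, a dye bias may not cancel in the mean.

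Before any normalization, every small subunit spot with signal was brighter in channel B. On array 1 the 108 spots ranged from 1.05-fold, in a dim rps1502 spot described below, to 5.21-fold, with a median of 3.25-fold. On array 2 the 110 spots ranged from 1.08-fold to 4.0-fold, with a median of 2.49-fold. Of all gene spots, 62.6% on array 1 and 68.7% on array 2 were brighter in channel B, with medians of 1.14-fold and 1.21-fold.

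After loess, 24 of the 55 genes (43.6%) passed the test as higher in channel B (limma, Benjamini-Hochberg adjusted p under 0.05), 0 passed as lower, and 31 did not pass. Among all 4903 genes tested, 11.3% were called higher and 16.6% lower. At an unadjusted p under 0.05 there were 37 small subunit genes (67.3%), against 41.4% of all genes tested in either direction. Ratios were positive on both arrays for 48 genes and of opposite sign for 7. Among all 4903 genes tested, 1889 were positive on both arrays and 1186 of opposite sign. The median ratio of the 55 genes was 0.53, from 0.02 to 1.37, where the median of all genes tested was 0.01. At least 1.5-fold higher on both arrays were 12 genes (21.8%), against 6.20% of all genes tested.

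The arrays did not give the same size. The median of the 55 genes was 0.59 on array 1 and 0.41 on array 2, and 37 genes had the larger ratio on array 1. Of all 4903 genes tested, 2114 had the larger ratio on array 1, and the medians were 0.009 and 0.010. Between the arrays a gene's ratio differed by a median of 0.347 and by up to 0.879, in rps401. Between the pair of spots of a gene the median difference was 0.190 on array 1 and 0.182 on array 2, so by the median the arrays differed more than the spots within them. The widest gap between spots was 1.52, in rps1502 on array 1. The median SD of the arrays was 0.245 for the 55 genes and 0.168 for all genes tested. Across the 55 genes the arrays' ratios had a Pearson correlation of 0.562 and a Spearman correlation of 0.457. This describes genes that share the same hybridisations, and genes are not independent replicates.

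**Figure D1:**
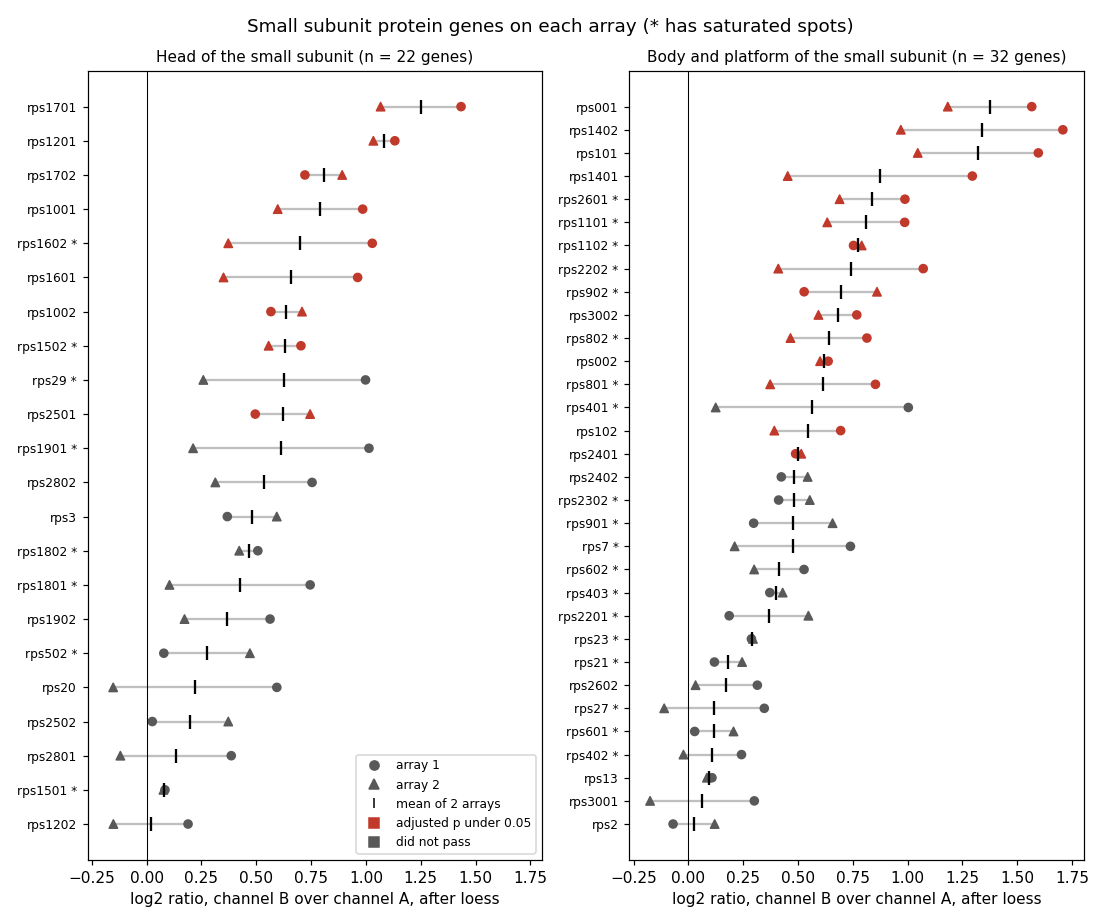
Ratio of 54 small subunit genes on array 1 (circles) and array 2 (triangles), as log2 of channel B to A after loess, for proteins of the head (left, 22 genes) and of the body and platform (right, 32 genes). Bars mark the mean of the arrays, red symbols mark the 24 genes past the adjusted p, asterisks mark genes with saturated spots, and the genes run from rps001 and rps1701 at the top to rps2 and rps1202 at the bottom.

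The body and platform hold 32 of the genes, and 15 of them passed as higher (46.9%, against 11.3% of all genes), with a median ratio of 0.49. The highest of all was rps001, one of the genes for the protein S0 on the solvent side of the subunit. Its single spots gave channel B as 4.52 and 4.99 times channel A on array 1 and as 3.74 and 3.96 times on array 2. After loess its ratio was 1.57 on array 1 and 1.18 on array 2, a mean of 1.37 ± 0.27 (adjusted p = 0.000691). All 4 spots were high, and none was saturated.

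Both genes of S14, a platform protein beside the mRNA exit, were among the highest. The rps1402 spot with signal on array 1 had 1.71, and the array 2 mean was 0.97, giving 1.34 ± 0.52 (adjusted p = 0.00176) from 3 spots. The rps1401 gene had 1.30 and 0.45, giving 0.87 ± 0.60 (adjusted p = 0.0176). Array 1 was the higher array for both.

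The rps101 gene encodes S1, called S3a in mammals, another protein near the mRNA exit. Its spots gave channel B as 3.82 and 3.91 times channel A on array 1 and as 2.87 and 3.33 times on array 2. Its ratio was 1.60 on array 1 and 1.05 on array 2, a mean of 1.32 ± 0.39 (adjusted p = 0.00118). The rps2601 gene encodes S26, which contacts the mRNA upstream of the start codon. Its ratio was 0.99 on array 1 and 0.69 on array 2, a mean of 0.84 ± 0.21 (adjusted p = 0.00696), with 1 of 4 spots saturated. The rps1101 gene, for a protein of the body, had 0.99 and 0.63, a mean of 0.81 ± 0.25 (adjusted p = 0.00907), with 3 of 4 spots saturated. For all of these, both arrays lay above 0.

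The other body and platform genes that passed were rps1102, rps2202, rps902, rps3002, rps802, rps002, rps801, rps102 and rps2401, with mean ratios from 0.50 for rps2401 to 0.77 for rps1102. Their adjusted p ran from 0.00828 to 0.0486.

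The head holds 23 of the genes, and 9 of them passed as higher (39.1%, against 11.3% of all genes), with a median ratio of 0.60. The rps1701 gene, for a protein of the head, had 1.43 on array 1 and 1.07 on array 2, a mean of 1.25 ± 0.26 (adjusted p = 0.00108). The rps1201 gene encodes S12, which lies in the beak of the head. Its spots gave channel B as 4.51 and 4.74 times channel A on array 1 and as 3.81 and 3.73 times on array 2. Its ratio was 1.13 and 1.03, a mean of 1.08 ± 0.07 (adjusted p = 0.00157). For rps1201 the arrays differed by less than those of any other of the 8 highest genes. The other head genes past the test were rps1702, rps1001, rps1602, rps1601, rps1002, rps1502 and rps2501, from 0.62 for rps2501 to 0.81 for rps1702.

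The genes rps29, rps1901 and rps401 had mean ratios of 0.56 to 0.63 and did not pass, and every spot of each with signal was saturated. They were picked out here after their values were seen. Their adjusted p was 0.0512 for rps29, 0.0608 for rps1901 and 0.0886 for rps401. The ratio of rps401 was 1.0 on array 1 and 0.12 on array 2, and array 1 was the higher array for rps29 and rps1901 as well.

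The 8 lowest genes lay close to 0. The lowest was rps1202, the second gene of S12, with 0.19 on array 1 and -0.15 on array 2, a mean of 0.02 ± 0.24 (adjusted p = 0.945). The rps2 gene encodes S2, at the entry of the mRNA channel. It had -0.07 and 0.12, a mean of 0.02 ± 0.13 (adjusted p = 0.925). The rps3001 gene, one of 2 genes for the small basic protein S30, had 0.30 and -0.18, a mean of 0.06 ± 0.34 (adjusted p = 0.820). In all 3 genes the arrays fell on either side of 0.

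The rps1501 gene, for a protein of the head near the decoding site, had 0.08 on each array (adjusted p = 0.740). The rps13 gene had 0.11 on array 1 and 0.08 on array 2, a mean of 0.10 ± 0.02 (adjusted p = 0.689). The array means of these genes lay close together after loess only. With median centring rps1501 had 1.39 and 0.99, and rps13 had 1.04 and 0.72. After loess the rps1501 spots of array 1 had -0.08 and 0.25. The rps402 gene had 0.24 and -0.02, a mean of 0.11 ± 0.19 (adjusted p = 0.658). The zinc-binding protein gene rps27 had 0.35 and -0.11, a mean of 0.12 ± 0.32 (adjusted p = 0.657). The rps601 gene had 0.03 and 0.21, a mean of 0.12 ± 0.13 (adjusted p = 0.628). A p that misses the threshold does not show that these transcripts were equal in the channels.

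How many of the genes passed depended on the normalization. Most of the 55 genes gave some of the brightest spots of the arrays: their median rank in brightness was 148 of the 4903 genes tested, and the dimmest, rps3001, ranked 1079. The loess curve rises at that brightness, and it subtracted from the small subunit genes a median of 0.85 on array 1 (0.05 to 1.38) and 0.65 on array 2 (0.07 to 0.93). With each array's ratios centred on their median in place of loess, 54 of the 55 genes passed as higher, against 15.3% of all genes tested. The median ratio was then 1.25, with 1.49 on array 1 and 1.09 on array 2.

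The exception with median centring was rps3001, the dimmest of the genes, at 0.35 on array 1 and -0.10 on array 2 (mean 0.13, adjusted p = 0.641). Its spots gave channel B as 1.24 and 1.71 times channel A on array 1 and as 1.08 and 1.18 times on array 2, among the smallest of the 55 genes. Both rps2 and rps1202 lay near 0 after loess and above it before. The 4 spots of rps2 were 2.23-fold to 2.66-fold brighter in channel B, and its median-centred ratio was 1.05 (adjusted p = 0.00122). For rps1202 the spots were 1.95-fold to 2.87-fold brighter, and the median-centred ratio was 1.01 (adjusted p = 0.00262).

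The genes themselves help to set the curve that is subtracted from them. Among the 200 brightest genes tested were 35 small subunit genes, 55 large subunit genes and 110 others. The other 110 had a median of 0.17 with median centring, 55 of them being positive on both arrays, and a median of -0.70 after loess. When the loess curve was fitted on the genes outside both ribosomal protein families, a setting chosen after seeing the data, 54 small subunit genes passed as higher, against 14.8% of all genes. The median ratio was then 1.04. Which curve is the right one was not tested. No small subunit gene passed as lower under any setting run. With the sign of array 1 turned, 0 passed in either direction in limma (0 at an unadjusted p under 0.05). In that setting 0 of all 4903 genes tested passed as well, so the 0 is not particular to the small subunit genes.

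**Figure D2:**
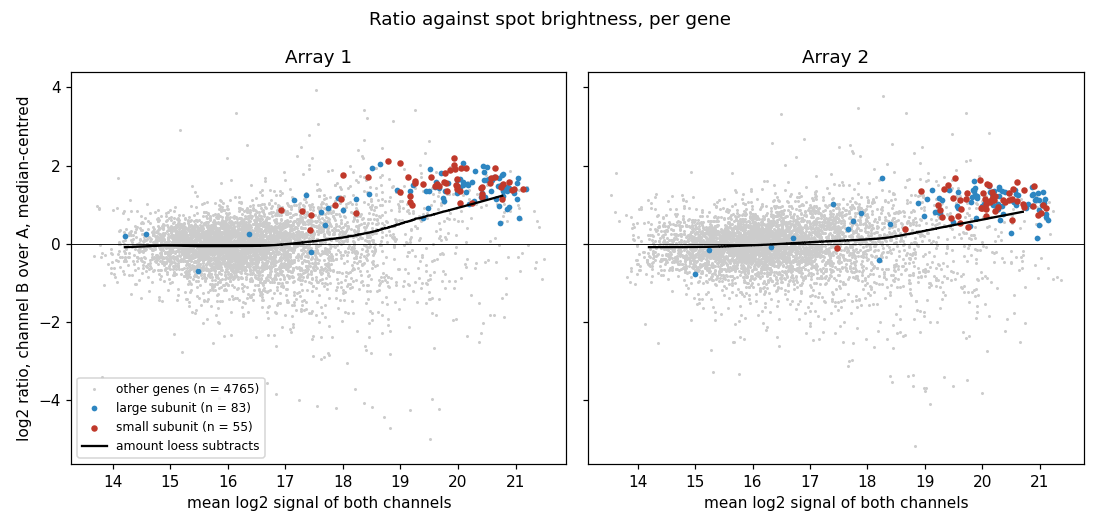
Median-centred log2 ratio (channel B to A) against the mean log2 signal of both channels, per gene, on each array, with 55 small subunit genes in red, 83 large subunit genes in blue and the 4765 other genes tested in grey. The black line is the amount that loess subtracts; the ribosomal protein genes crowd at the bright end, where the line rises and where most of them lie above it.

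The large subunit genes gave similar values, and 55 of them were among the 200 brightest genes tested. Not all lay in the range of the small subunit genes. For rpl1603, rpl1802, rpl302 and rpl24-3 the median-centred mean was below the loess mean, as it was for no small subunit gene. Of 83, after loess, 29 passed as higher (34.9%, against 11.3% of all genes) and 2 as lower (2.41%, against 16.6%). Their median was 0.40. With median centring 76 passed as higher (91.6%, against 15.3% of all genes), with a median of 1.21. The small subunit medians were 0.53 and 1.25. The highest by the smaller ratio of the arrays were rpp203 (1.59 ± 0.07) and rpp103 (1.10 ± 0.10), genes of the acidic stalk proteins that recruit translation factors. The pair past the test as lower after loess were the probes rpl402 (-0.72 ± 0.05) and rpl4 (-0.56 ± 0.19), and both were above 0 with median centring, at 0.34 and 0.56. The difference between the families was not tested.

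The 55 genes encode 31 proteins. Of these, 8 have a single gene here (rps2, rps3, rps7, rps13, rps20, rps21, rps27 and rps29), and 23 have paralogs, 47 genes in all, which form 25 pairs. The probe sequences were not used here, and paralogs can be nearly identical, so whether a probe also binds its paralog's transcript was not tested. Both genes passed as higher in 8 pairs, 1 gene in 8 pairs and neither in 9. The difference between the paralogs had the same sign on both arrays in 17 pairs and opposite signs in 8. The median size of the difference was 0.32, from 0.02 to 1.07.

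In 4 pairs the difference had one sign and reached 0.58 (1.5-fold) on each array. The widest was S12, where rps1201 lay above rps1202 by 0.94 on array 1 and 1.19 on array 2, a mean of 1.07 ± 0.17. Every rps1201 spot had a larger fold than every rps1202 spot. For S1, rps101 (1.32) lay above rps102 (0.54) by 0.90 and 0.65, a mean of 0.78 ± 0.17. For S0, rps001 (1.37) lay above rps002 (0.62) by 0.93 and 0.58, a mean of 0.76 ± 0.24. In these last pairs both genes passed as higher, rps102 with an adjusted p of 0.0441 and rps002 with 0.0218.

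For S26, rps2601 (0.84) lay above rps2602 (0.17 ± 0.20, adjusted p = 0.471) by 0.67 and 0.66. This was the pair whose difference varied least between the arrays among the 4 with all spots, at 0.67 ± 0.01. With median centring, the differences were 0.82 for S12, 0.24 for S1, 0.70 for S0 and 0.93 for S26, all in the same direction. The pair differences are descriptions without a test; an exact sign-flip test over 2 arrays cannot go below p = 0.5.

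On array 1, 7 small subunit spots were more than 4-fold dimmer than both the other spot of the gene there and the same spot on array 2. They belonged to rps1002, rps1101, rps1502, rps2201, rps2202, rps2602 and rps403, and those of rps1101 and rps2202 were saturated. Those of rps1002, rps1502 and rps2201 lay in print block 45, and those of rps2602 and rps403 in block 43. Over all genes there were 64 such spots on array 1 and 12 on array 2. The rps2602 spot had intensities of 29597 in channel A and 36382 in channel B, against 570634 and 1647855 for the other. Without such spots, a setting chosen after seeing the data, the S26 difference was 0.52 on array 1 and 0.66 on array 2, below 0.58 on one of them, and 0.62 with median centring. The place of S26 among the 4 pairs rests on that spot, and the other 3 pairs stayed past 0.58. A total of 22 genes then passed as higher, the calls of rps2202 and rps2401 being lost. Of all 4903 genes tested, 526 passed as higher in that setting.

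The dimmest gene again stood apart under median centring. There, rps3002 (1.29) exceeded rps3001 (0.13) by 1.17, more than in any other pair, whereas after loess rps3002 (0.68 ± 0.12, adjusted p = 0.0156) exceeded it by 0.62 ± 0.21. This pair was picked out after its values were seen. In the other direction, 10 of the 25 pairs changed sign when median centring replaced loess, among them rps401 over rps402 (0.45 after loess, -0.42 with centring). For rps1502 over rps1501 the values were 0.55 and -0.16, and without the dim rps1502 spot of array 1 they were 0.93 and 0.31, with no change of sign.

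The 3 pairs with the smallest recorded difference were those of S24, S8 and S11. The S8 and S11 genes rest on spots that are mostly saturated, so how close they are cannot be read from these values, and S24 alone has no saturated spot. The rps2401 gene (0.49 and 0.51 on the arrays, adjusted p = 0.0486) passed and rps2402 (0.42 and 0.54, adjusted p = 0.0557) did not, although their means differed by 0.02 ± 0.07. The rps802 gene (0.81 and 0.47) and rps801 (0.85 and 0.37) differed by 0.03 ± 0.09, and both passed, with all 8 of their spots saturated. The rps1101 gene and rps1102 (0.75 and 0.79) differed by 0.04 ± 0.28. With all spots, the sign of the difference was opposite on the arrays in each of these pairs. Without the dim rps1101 spot of array 1, rps1101 lay below rps1102 on both arrays, by a mean difference of -0.12.

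The S6 genes encode the protein that S6 kinases phosphorylate. The rps602 gene had 0.53 on array 1 and 0.30 on array 2, a mean of 0.41 ± 0.16 (adjusted p = 0.0956), and rps601 was among the lowest, as given above. Neither passed after loess, and both passed as higher with median centring, at 1.38 and 1.21. Each had 3 of 4 spots saturated.

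**Figure D3:**
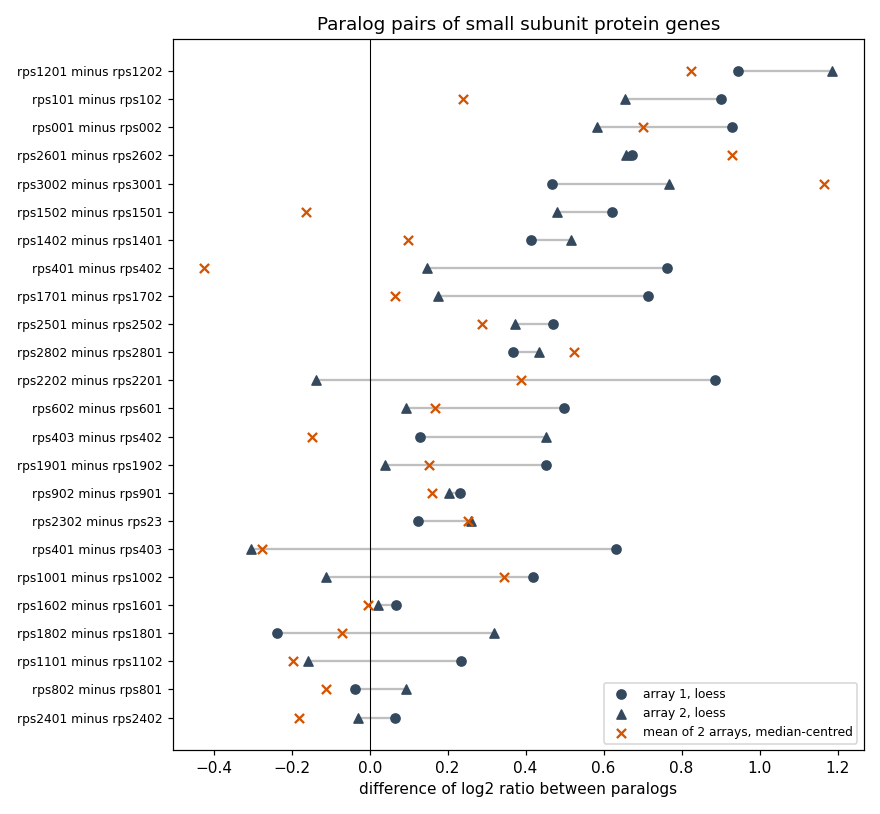
Difference of log2 ratio between the paralogs of 24 pairs, on array 1 (circles) and array 2 (triangles) after loess, with the mean of the arrays under median centring as crosses. The pairs of S12, S1, S0 and S26 at the top lie beyond 0.58 on both arrays, and the crosses leave the loess values by the largest amount for rps401 and rps402.

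The files give each spot a saturation factor, a fraction that is 1 for most spots and lower where pixels reached the scanner's limit. Its formula is not given in the sources used here. It was below 1 in 32 of 108 small subunit spots with signal on array 1 (29.6%) and in 43 of 110 on array 2 (39.1%), against 1.65% and 2.32% of all gene spots. The same spot was affected on both arrays in 29 cases. These are spots of bright genes, and their ratio may be bounded rather than measured.

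After loess, spots below 1 were not shifted in one direction. On array 1 their median ratio was 0.78 (n = 32), above the 0.51 of spots at 1 (n = 76). On array 2 it was 0.32 (n = 43), below the 0.49 of spots at 1 (n = 67). The ranges overlapped on both arrays. With median centring the medians were 1.57 and 1.5 on array 1, and 0.96 and 1.13 on array 2, in the same order as after loess.

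The most affected spots were recorded as dimmer in total signal. On array 1 the 15 spots with a factor below 0.5 had a median channel B intensity of 916850, against 3140208 for the 17 spots between 0.5 and 1. On array 2 the medians were 1028606 (18 spots) and 2929950 (25 spots). Of the spots below 0.5, 13 on array 1 and 18 on array 2 had flag B, whose meaning is not given. Per counted pixel the order was the other way for spots below 1 against spots at 1. Their median channel B signal was 44850 against 23030 on array 1 and 40910 against 21710 on array 2. Loess subtracts less at lower brightness, and the ratios after loess were higher for the more affected spots, at 0.92 against 0.56 on array 1 and 0.40 against 0.26 on array 2. With median centring the order turned, at 1.47 against 1.645 and at 0.90 against 1.04.

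**Figure D4:**
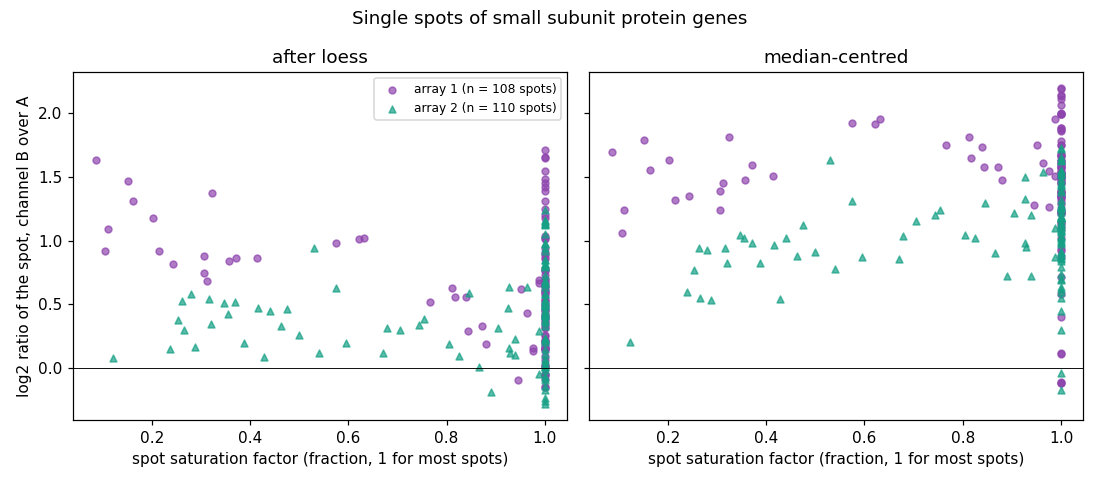
Log2 ratio (channel B to A) of every small subunit spot against its saturation factor, after loess (left) and with median centring (right), for array 1 (circles, 108 spots) and array 2 (triangles, 110 spots). Spots of low factor on array 1 rise to the left after loess and do not with median centring, and all saturated spots are above 0 with median centring.

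Where a gene had one saturated and one unsaturated spot on the same array, the pair could be compared directly. There were 18 such comparisons in 14 genes, and the saturated spot had the lower ratio in 12 of them, with a median difference of -0.16 after loess and -0.22 with median centring. The widest was rps1502 on array 1, where the saturated spot (factor 0.151) had 1.46 and the other had -0.06. That unsaturated spot had a channel B intensity of 66943, whereas the same spot had 2323550 on array 2. On array 2 the order was opposite, with 0.26 for the saturated and 0.85 for the unsaturated spot.

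The next widest gaps were in rps1101, rps2601 and rps902. For rps1101 on array 1 the saturated spot had 1.31 and the other 0.66, while median centring gave 1.55 and 1.88. For rps2601 on array 1 the saturated spot had 0.67 and the other 1.31. For rps902, which encodes a protein at the mRNA entry, the array 2 spots had 0.59 (saturated) and 1.13, and the array 1 spots had 0.56 (saturated) and 0.49. The order of the rps902 spots thus turned between the arrays.

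By gene, 27 had no saturated spot, 17 had both kinds, and 11 had saturated spots only. Those without a saturated spot included 15 genes past the test as higher, with a median ratio of 0.54. Those with both kinds included 5, with a median of 0.40, and those with saturated spots only included 4, with a median of 0.61. With median centring the medians were 1.29, 1.22 and 1.25, and the number past the test was 26 of 27, 17 of 17 and 11 of 11. Of all genes tested, 11.3% passed as higher after loess and 15.3% with median centring.

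When saturated spots were left out, 37 of the genes still had a spot on each array, and 22 of them passed as higher, with a median of 0.62. Of all genes tested in that setting, 515 of 4804 passed as higher. The call of rps1502 (mean 0.63 ± 0.10, adjusted p = 0.0214 with all spots) was lost there, at 0.46 (adjusted p = 0.202), where its only array 1 spot is the dim one described above. It was the 1 call lost, and 5 genes gained a call. Of the paralog pairs, 13 could still be compared without saturated spots, all 13 with the mean difference in the same direction as with all spots. The pairs of S12, S1, S0 and S26 then differed by 1.04, 0.72, 0.75 and 0.85.

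Dividing each signal by the spot's area times its factor, which takes the factor as the share of unsaturated pixels and was chosen after seeing the data, ended the calls of rps2202 (0.29), rps1602 (0.47), rps802 (0.10), rps801 (0.19) and rps1502 (0.34). It gave 4 other genes a call, so that 23 passed as higher, against 559 of all 4903 genes tested. The median of the genes with saturated spots only was then 0.186.

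The genes lie on all 3 chromosomes, and the calls were spread over them. On chromosome I 14 of 28 genes passed as higher (median 0.52), on chromosome II 8 of 20 (0.59), and on chromosome III 2 of 7 (0.46). The share over all genes tested was 11.3%. The genome table places small subunit genes as adjacent protein-coding genes in 3 cases, named here for their position. The neighbours rps1402 (1.34) and rps1601 (0.66) on chromosome II both passed as higher. The neighbours rps29 (0.63) and rps27 (0.12) on chromosome II, and rps2 (0.02) and rps20 (0.22) on chromosome III, did not pass.

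Genes that build or use the small subunit were read from lists drawn up with earlier results of these data known. Of 61 genes tested for assembly of the subunit and processing of its RNA, 8 passed as higher (13.1%, against 11.3% of all genes) and 4 as lower (6.56%, against 16.6%), and the median was 0.15. The share higher is near that of all genes. The highest by the smaller ratio of the arrays were fap7 (1.39 ± 0.70), an ATPase of late subunit maturation in budding yeast, and mis3 (0.75 ± 0.07), an assembly factor. The lowest were rrp12 (-1.14 ± 0.002), a factor of subunit export in budding yeast, and utp20 (-0.998 ± 0.29), of the large complex on the precursor RNA. The list's median was 0.13 with median centring. The settings differ by a curve that follows brightness, so how far a list moves depends on how bright its genes are. The brightness of this list was not compared with that of the small subunit genes.

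Of 29 tested genes for initiation factors and related proteins, 8 passed as higher (27.6%, against 11.3% of all genes) and 1 as lower (3.45%, against 16.6%), and the median was 0.35. The cpc2 gene encodes the RACK1 protein of the subunit's head. It had 1.29 on array 1 and 0.78 on array 2, a mean of 1.04 ± 0.36 (adjusted p = 0.00366), with 3 saturated spots. The csn7b gene, for a subunit of initiation factor eIF3, had 0.80 and 0.95, a mean of 0.87 ± 0.11. The one gene past the test as lower was gcn3, for a regulatory subunit of the exchange factor eIF2B, at -1.80 and -1.54, a mean of -1.67 ± 0.18 (adjusted p = 0.000199). With median centring 15 of the 29 passed as higher (51.7%, against 15.3% of all genes) and 1 as lower, with a median of 0.49.

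Of 16 tested genes of the TOR and S6 kinase pathway, 1 passed as higher (6.25%, against 11.3% of all genes) and 2 as lower (12.5%, against 16.6%), and the median was -0.18. Neither share is above that of all genes. The psk1 gene, for a kinase that phosphorylates S6, had -0.93 on array 1 and -0.50 on array 2, a mean of -0.72 ± 0.30 (adjusted p = 0.0174). The sck2 gene, for a related kinase, had -0.74 and -0.64, a mean of -0.69 ± 0.07 (adjusted p = 0.0144). The gene past the test as higher was pck1, a protein kinase C gene, at 0.56 ± 0.06. These counts were 1 and 2 with median centring as well.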

How the data were processed

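The members and gene lists were chosen with earlier results of these data known. Per the file headers, the deposited files hold background-corrected intensity values of channels A and B, linear ratio columns and a saturation factor, a fraction from 0 to 1. The authors' deposited value table is lowess-normalized, per the series' design text, and its values run as log10 of B to A (r = 0.916 and 0.941 in its first part). In its second part the rows are in another order. They could be put back in order by groups of blocks (r = 0.876 and 0.950), which served as an alternative chosen after seeing the data. The centring of that table is not stated, and a value of -2 was treated as missing. Values of the scanner files were joined by spot number, since the rows of the array 2 file are in another order.

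Each array held 11520 spots in 48 blocks, 10016 of them gene spots. Gene spots had median signals of 77032 (A) and 82901 (B) on array 1 and of 76938 (A) and 90289 (B) on array 2. An offset of 50 was added, log2 ratios were normalized by loess (span 0.3, controls with weight 0), and spots of a probe were averaged. Genes below the 95th percentile of the negative controls in both channels of either array were left out. Ratios were tested against 0 with limma 3.58.1 in R 4.3.3, two-sided, with Benjamini-Hochberg adjustment at 0.05. The test had 1 residual and 7.51 prior degrees of freedom per gene, so the number of arrays limits the precision. The test was tried on simulated data, and the outcome is not given here. Plots used Python 3.11.15 and matplotlib 3.10.9.

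Names came from the RefSeq gene table (ASM294v3): 3466 probes by locus tag, 942 by symbol, 366 by synonym, while 232 kept their own. Paralogs share a symbol apart from a closing 01, 02 or 03, and rps23 was paired with rps2302. One member is counted but not reported by name here, and the plots of single genes and pairs leave it out. From the gene lists, nip1 and dim1 were left out after the values were seen, since in fission yeast these names lead to a DNA repair gene and a splicing gene. Head and body groups were written after the values were seen. Named genes are the 8 highest and 8 lowest members, pairs past 0.58 on both arrays, the 3 closest pairs, the 4 genes with the widest gap between saturated and unsaturated spots and, in other lists, up to 2 at each end among those past the test. The written rule called for promoter motifs; sequences were not used here. Alternatives were median centring, loess per print-tip block, other offsets, spot filters, the authors' values, array 1 turned in sign, normexp, signal per unsaturated pixel, leaving out spots dimmed more than 4-fold on one array, and a loess curve without ribosomal protein genes.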

Additional observations from a re-analysis of the deposited data

How the results depend on the processing

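Calls after loess rest on 2 arrays and on bright, partly saturated spots, and whether channel B held the Ssn6 culture is likely and not stated. Median centring gave 54 genes higher, against 750 of all 4903 tested. The median was 1.245 (1.289 for genes without a saturated spot, 1.245 for those with saturated spots only). With dimmed spots left out as well it gave 54, against 729 of 4903, and a median of 1.313 (1.292 and 1.245). A loess curve without ribosomal protein genes gave 54, against 724 of 4903, and a median of 1.038 (1.081 without a saturated spot). The authors' deposited values of 1 spot per array gave 0 genes in limma, as for all genes, and a median of 0.88 (0.947 without a saturated spot). Their reordered values gave 24 genes, against 334 of all 4900 tested, and a median of 0.872 (0.88 without a saturated spot). The causes of these differences were not tested. Between 19 and 33 genes passed as higher under print-tip loess, other offsets, normexp, no dim filter, flag, saturation or dimmed-spot filters and signal per unsaturated pixel, and 0 as lower. Of the 4804 to 5001 genes tested there, 510 to 598 passed as higher. Calls after loess that some of these settings or the reordered values ended were those of rps1401, rps1502, rps1601, rps1602, rps2202, rps2401, rps801 and rps802. Single-array medians, which have no test, were 0.41 to 0.594 for all 55 genes, 0.515 to 0.594 without a saturated spot and 0.264 to 0.931 with saturated spots only. The number of pairs past 0.58 on both arrays was 3 or 4, except 2 with median centring and dimmed spots left out (1 of them among the 4 after loess). The pairs were not always the same: only 2 of those 4 were among the 3 with median centring, the 4 with print-tip loess, and the 3 each with the authors' values, their reordered values and loess without ribosomal protein genes. Each array holds both cultures, so its ratio already pairs them, and the test set the 1 group of ratios against 0. Turning the sign of array 1, by construction, sets the arrays against each other. Of the 55 genes 0 passed, as for all 4903 genes tested, with 0 of the 55 at an unadjusted p under 0.05. The median became -0.141 (-0.151 without a saturated spot, -0.329 with saturated spots only). The number of pairs past 0.58 was not computed for the turned sign. Pair differences became -0.123 (rps101, rps102), -0.173 (rps001, rps002) and -0.008 (rps2601, rps2602). Gene ratios became -0.191 (rps001), -0.369 (rps1402), -0.275 (rps101), -0.184 (rps1701), -0.049 (rps1201), -0.421 (rps1401), -0.149 (rps2601), -0.177 (rps1101), -0.194 (rps1001), -0.33 (rps2202), -0.329 (rps1602), -0.087 (rps3002), -0.306 (rps1601), -0.174 (rps802), -0.074 (rps1502), -0.018 (rps002), -0.24 (rps801) and -0.151 (rps102). Signal per unsaturated pixel put rps401 at -0.313, with its 4 spots saturated; print-tip loess put rps1202 at -0.08 and rps23 at -0.038.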
